A study of Oryza sativa Indica Group with 12 samples.

Results

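The RNA polymerase II (RNAPII) and H3K9me2 loops of the rice variety ZS97 (Zhenshan 97) were compared with each other. They are the loops on chromosomes 1 to 12 in the lists of these targets, 13012 RNAPII loops and 6933 H3K9me2 loops, together 19945 of the 64726 loops in the 6 lists of the series. Both lists came from young leaves of 2-week-old seedlings, with 2 replicate libraries for each target, and the labels give no treatment. The series also holds H3K4me3 loops of ZS97 and the same 3 targets in the variety MH63 (Minghui 63), and each target of each variety has 1 list.

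RNAPII transcribes protein-coding genes, and loops pulled down with it join genes and regulatory sites at which it sits. H3K9me2, dimethylated lysine 9 of histone H3, is in plants a mark of heterochromatin, the condensed and mostly silent chromatin rich in transposons, and it is densest around centromeres. ChIA-PET, a method that reads chromatin contacts by sequencing, crosslinks chromatin, pulls down fragments that carry the target, and ligates ends that lie close together. Each sequenced pair of ends, called a paired-end tag (PET), that joins a pair of binding sites, called anchors, counts toward the loop between them.

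The loops were called after both replicates of a target had been merged, so that a spread over replicates could not be had for any value and no test between the targets was possible. Wilson 95% intervals are given for shares and order-statistic 95% intervals for medians, and both cover counting error only. The range over the 12 chromosomes shows how evenly a difference was found along the genome. The RNAPII loops held 197758 PETs in sum and the H3K9me2 loops 95474. The lowest PET count was 6 among RNAPII loops and 4 among H3K9me2 loops, and 2025 H3K9me2 loops (29.2%) were under 6. Values were therefore also computed for loops of 6 PETs or more, which leaves the RNAPII list as it is and 4908 H3K9me2 loops. The depth of the libraries behind each list was not used here, so the difference between the targets and the difference in depth cannot be told apart in counts of loops.

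The anchors differed in number and in width. Once overlapping intervals of a list were joined, the RNAPII loops ended at 6901 anchors and the H3K9me2 loops at 3286 anchors. RNAPII anchors were a median of 1.78 kb wide, with quartiles of 0.765 and 4.24 kb. H3K9me2 anchors were a median of 9.98 kb wide, with quartiles of 5.11 and 18.1 kb. The widest RNAPII anchor measured 27.9 kb and the widest H3K9me2 anchor 205.6 kb. RNAPII anchors covered 20.7 Mb, or 5.97% of the 346.5 Mb that the lists span, and H3K9me2 anchors covered 49.2 Mb, or 14.2%. As a check of the labels, the anchors were set against the ZS97 list for H3K4me3, a histone mark of active promoters. Of the RNAPII anchors 47.1% (3253 anchors, interval 46.0 to 48.3%) overlapped an H3K4me3 anchor, against 5.23% of the H3K9me2 anchors (172 anchors, interval 4.52 to 6.05%). The H3K4me3 anchors covered 5.79% of the chromosomes. With the H3K4me3 list also cut to loops of 6 PETs or more, these shares were 33.9% for RNAPII and 2.69% for H3K9me2. This cut left the RNAPII anchors as they were. It brought the H3K4me3 anchors from 11960 to 6710 and their cover of the chromosomes to 3.52%.

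Loops of the 2 targets rarely ended at the same sites. Binding sites of either target that are not an anchor of a listed loop were not compared. An H3K9me2 anchor was overlapped by at least 1 bp at 132 of the 6901 RNAPII anchors, or 1.91% (interval 1.62 to 2.26%). In the other direction, 117 of the 3286 H3K9me2 anchors, or 3.56% (interval 2.98 to 4.25%), overlapped an RNAPII anchor. Most of these overlaps covered under 50% of the narrower anchor. An overlap of at least 50% of the narrower anchor was left at 43 RNAPII anchors (0.623%) and at 35 H3K9me2 anchors (1.07%), and 39 RNAPII midpoints (0.565%) and 11 H3K9me2 midpoints (0.335%) lay inside an anchor of the other target. The bases in both sets came to 0.193 Mb. They made up 0.931% of the RNAPII anchor bases, while H3K9me2 anchors covered 14.2% of the chromosomes. Of the H3K9me2 anchor bases they made up 0.392%, while RNAPII anchors covered 5.97% of the chromosomes.

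Overlap was found on every chromosome at a low share. For RNAPII it ran from 0.844% of the anchors on chromosome 7 to 5.06% on chromosome 11, and for H3K9me2 from 1.09% on chromosome 10 to 6.19% on chromosome 1. The wider classes of anchors overlapped the other target more often, though not at each step for H3K9me2. A wider interval has more bases at which an overlap of 1 bp can fall, and the shares were not adjusted for width. Among RNAPII anchors the share was 0.580, 1.10, 2.32 and 3.65% over 4 equal classes from the narrowest to the widest, and among H3K9me2 anchors it was 2.19, 2.07, 4.99 and 4.99%. Overlapping RNAPII anchors had a median width of 4.05 kb, against 1.75 kb for the other RNAPII anchors. They had a mean of 5.69 partners, against 3.35 for the others, where a partner is another anchor joined by at least 1 loop. The mean of 5.69 includes the RNAPII anchor with the most partners of all, 92, and the next of the overlapping anchors had 39. The anchor with 92 overlapped an H3K9me2 anchor that was not left at 6 PETs or more. Overlapping H3K9me2 anchors had a median width of 14.6 kb, against 9.80 kb for the other H3K9me2 anchors. Their mean number of partners was 4.32, against 4.22 for the others, and among loops of 6 PETs or more the order turned round, with 3.94 for the overlapping anchors and 3.999 for the others.

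The overlapping H3K9me2 anchors met the promoter mark more often than the others, while for RNAPII the order depended on the PET limit. Over all loops the overlapping anchors were the wider anchors of both lists by median, and the shares were not adjusted for width. Of the overlapping H3K9me2 anchors 25.6% (30 of 117, interval 18.6 to 34.2%) also overlapped an H3K4me3 anchor, against 4.48% of the other H3K9me2 anchors (142 of 3169, interval 3.81 to 5.26%). With every list, H3K4me3 included, restricted to 6 PETs or more, these shares were 10.0% of the overlapping and 2.41% of the other H3K9me2 anchors. For RNAPII the shares were 53.8% of the overlapping anchors (71 of 132, interval 45.3 to 62.1%) and 47.0% of the others (interval 45.8 to 48.2%). These 2 intervals overlapped. At 6 PETs or more, a cut that changed the H3K9me2 and H3K4me3 lists only, the order turned round, with 25.2% of the overlapping RNAPII anchors and 34.0% of the others. No interval is given for the shares at 6 PETs or more, so this turn is a description only.

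Anchors of the 2 targets mostly lay far apart. From an RNAPII anchor the nearest H3K9me2 anchor was a median of 143.9 kb away (interval 138.0 to 149.4 kb, quartiles 45.2 and 345.9 kb). From an H3K9me2 anchor the nearest RNAPII anchor was a median of 107.9 kb away (interval 98.1 to 116.1 kb, quartiles 25.9 and 317.8 kb). The nearest anchor of the same target was far closer, at a median of 3.51 kb for RNAPII and 7.70 kb for H3K9me2. Within 10 kb of an anchor of the other target lay 9.82% of the RNAPII anchors and 15.1% of the H3K9me2 anchors. Within 100 kb these shares were 40.4% and 48.6%. More than 1 Mb away were 400 RNAPII anchors (5.80%) and 191 H3K9me2 anchors (5.81%).

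**Figure D1:**
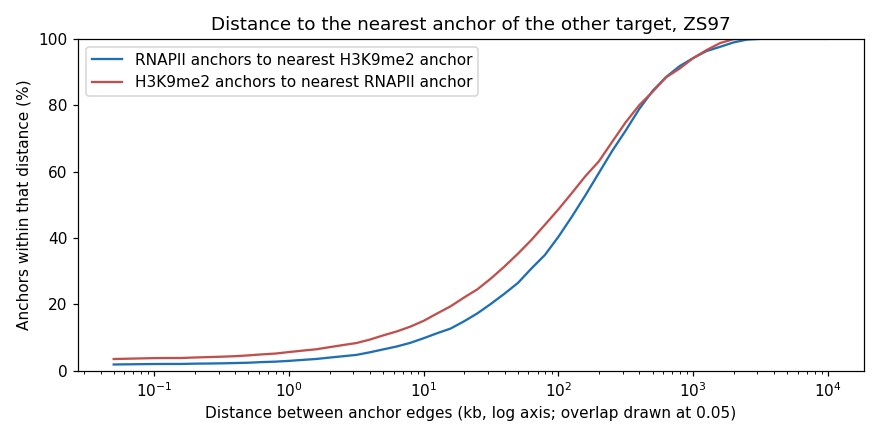
Share of ZS97 anchors (%) that lie within a given distance (kb, log axis) of the nearest anchor of the other target, RNAPII anchors in blue and H3K9me2 anchors in red. The curves start at 1.91% and 3.56%, the anchors that overlap, and pass 100 kb at 40.4% and 48.6%.

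The distance from RNAPII anchors depended on which H3K9me2 loops were counted. When only loops of 6 PETs or more were used its median was 305.8 kb, and 20.3% of the RNAPII anchors lay more than 1 Mb from an H3K9me2 anchor, while the median from H3K9me2 anchors was 118.9 kb. By chromosome the RNAPII median ran from 44.5 kb on chromosome 12 to 276.1 kb on chromosome 4, and the H3K9me2 median from 27.9 kb on chromosome 1 to 444.2 kb on chromosome 4. The RNAPII median was the higher on 6 of the 12 chromosomes over all loops, and on 10 of 12 among loops of 6 PETs or more, with chromosomes 11 and 12 the exceptions.

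Loops with an end at an anchor of the other target were likewise few. At least 1 end lay at an H3K9me2 anchor for 751 RNAPII loops, or 5.77% (interval 5.38 to 6.19%), and at an RNAPII anchor for 477 H3K9me2 loops, or 6.88% (interval 6.31 to 7.50%). For RNAPII the share was higher among long loops, with 3.32% of the loops of up to 20 kb and 11.8% of those over 10 Mb. For H3K9me2 it was 4.99% and 9.79% in the same classes. RNAPII loops with 1 end at an H3K9me2 anchor (683 loops) had a median span of 182.5 kb, against 34.6 kb for RNAPII loops with no such end. H3K9me2 loops with 1 end at an RNAPII anchor (449 loops) had a median span of 126.1 kb, against 116.2 kb for those with none. Both ends lay at H3K9me2 anchors for 68 RNAPII loops (0.523%), with a median span of 17.5 kb, and at RNAPII anchors for 28 H3K9me2 loops (0.404%), with a median span of 51.4 kb. In these counts both ends could lie at the same anchor of the other target.

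Loops of the 2 targets between the same pair of sites were rarer still. A loop of each target joined overlapping anchors at both ends in 17 pairs, made of 17 RNAPII loops (0.131%) and 12 H3K9me2 loops (0.173%). The pairs lay on chromosomes 1 (5 pairs), 3 (4), 6 (2), 11 (2), 2, 4, 8 and 9 (1 each). Their RNAPII loops had a median span of 22.0 kb and a median PET count of 16, and their H3K9me2 loops a median span of 34.1 kb and a median PET count of 8.5. Of the 17 pairs, 14 had 6 PETs or more in both loops.

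The 3 pairs with the highest PET counts, ranked by the smaller count of the pair, show how such sites fit together. The first and the third are at one locus on chromosome 3. There an RNAPII loop joined chr3:1160066-1162312 with chr3:1172889-1178728 in ZS97 coordinates, with a PET count of 39 and a span of 14.6 kb, and another joined the same left anchor with chr3:1169184-1170153, with a PET count of 16. The H3K9me2 loop of both pairs joined chr3:1160982-1162311, which lies inside the left RNAPII anchor, with the 15.6 kb anchor chr3:1165816-1181464, and had a PET count of 44. A total of 4 RNAPII loops of this locus shared both ends with that single H3K9me2 loop. In the second pair, on chromosome 1, an RNAPII loop between chr1:16925217-16941888 and chr1:17018079-17020854 had a PET count of 36 and a span of 85.9 kb. Its H3K9me2 partner loop, between chr1:16940256-16978324 and chr1:17020233-17075103, had a PET count of 49 and a span of 88.4 kb. On chromosome 1 the anchors overlapped only at their edges, while on chromosome 3 whole anchors lay inside anchors of the other target.

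RNAPII loops were shorter than H3K9me2 loops in the bulk of the lists and more often very long at the far end. Median span, measured between anchor midpoints, was 36.4 kb for RNAPII, with an interval of 35.1 to 37.7 kb and quartiles of 15.6 and 242.4 kb. For H3K9me2 it was 116.1 kb, with an interval of 110.4 to 121.5 kb and quartiles of 42.8 and 347.0 kb. The RNAPII median was lower on 12 of 12 chromosomes, running from 23.8 kb on chromosome 10 to 50.4 kb on chromosome 3, against 75.6 kb on chromosome 1 to 156.4 kb on chromosome 3 for H3K9me2. The ranges over chromosomes did not overlap. Spans of up to 20 kb made up 32.6% of the RNAPII loops and 9.25% of the H3K9me2 loops. Spans of 100 kb to 1 Mb made up 13.7% of the RNAPII loops and 40.9% of the H3K9me2 loops. Over 10 Mb the order turned round, with 990 RNAPII loops (7.61%, interval 7.17 to 8.08%) and 143 H3K9me2 loops (2.06%, interval 1.75 to 2.42%). The H3K9me2 loops over 10 Mb had a median PET count of 5, near the lower limit of that list, while the RNAPII loops over 10 Mb had a median of 8. Among H3K9me2 loops of 6 PETs or more, 1.20% spanned over 10 Mb.

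**Figure D2:**
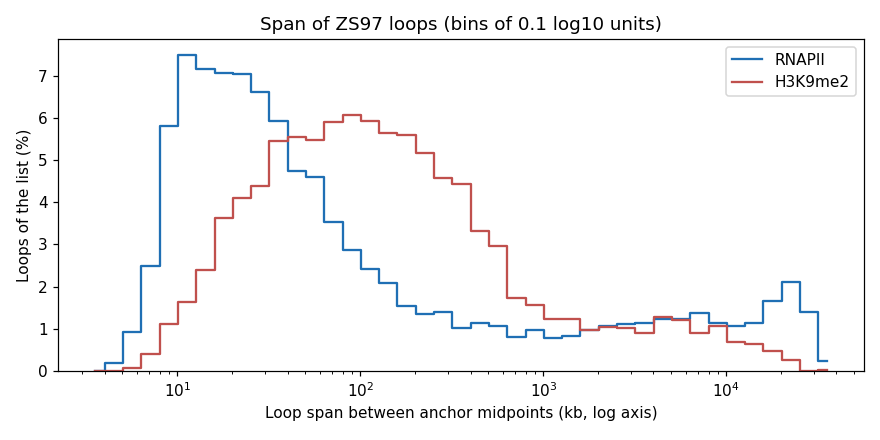
Share of the loops of each ZS97 list (%) by loop span between anchor midpoints (kb, log axis, steps of 0.1 log10 units), RNAPII in blue and H3K9me2 in red. The medians are 36.4 kb for RNAPII and 116.1 kb for H3K9me2, and RNAPII has a second, smaller rise over 10 Mb, where 7.61% of its loops lie, against 2.06% for H3K9me2.

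The 2 loops with the highest PET counts in each list had anchors wider than the median of that list. The strongest RNAPII loop, with a PET count of 1052, joined chr3:9260251-9271676 with chr3:9288727-9298475 over 27.6 kb. Its anchors were 11.4 and 9.75 kb wide, against a median of 1.78 kb for RNAPII anchors. Next came a loop with a PET count of 753 and a span of 19.2 kb, between chr2:23794433-23805921 and chr2:23810750-23827921, with anchors of 11.5 and 17.2 kb. The strongest H3K9me2 loop, with a PET count of 396, joined chr3:18582629-18644326 with chr3:18650973-18790144 over 107.1 kb, and its anchors were 61.7 and 139.2 kb wide. Next came a loop with a PET count of 290 and a span of 123.4 kb, between chr12:10034033-10069272 and chr12:10072236-10277867, with anchors of 35.2 and 205.6 kb. None of these 4 loops had an end at an anchor of the other target or held an anchor of it between its ends.

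Over the whole lists most loops of both targets were nested, and this share depended on the loops over 1 Mb. A loop was nested if its anchors and all between them lay inside the outer ends of a loop of the other target. Counting loops of any length, 87.0% of the RNAPII loops (11315) lay inside at least 1 H3K9me2 loop and 97.6% of the H3K9me2 loops (6764) lay inside at least 1 RNAPII loop. Loops of any length spread over 95.8% of the chromosomes for RNAPII and 93.5% for H3K9me2. A nested RNAPII loop lay inside a median of 7 H3K9me2 loops, and a nested H3K9me2 loop inside a median of 30 RNAPII loops. Loops that held a loop of the other target numbered 3032 for RNAPII, with a median span of 4746 kb, and 1683 for H3K9me2, with a median span of 953.4 kb. Every RNAPII loop over 10 Mb (990 loops) and every H3K9me2 loop over 10 Mb (143 loops) held a loop of the other target. Of the loops of 20 to 100 kb, 3.80% of the RNAPII loops and 6.05% of the H3K9me2 loops did so. Among loops of 6 PETs or more the nested share was 67.9% for RNAPII and 97.8% for H3K9me2.

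With loops over 1 Mb left out of both lists, most of the remaining loops of both targets lay apart. The remaining loops were 10611 RNAPII and 6039 H3K9me2 loops, and each was compared with the remaining loops of the other target only. Of the RNAPII loops 80.4% (8535, interval 79.7 to 81.2%) shared no stretch with an H3K9me2 loop of up to 1 Mb. Of the H3K9me2 loops 67.8% (4094, interval 66.6 to 69.0%) shared none with an RNAPII loop of up to 1 Mb. Nested inside a loop of the other target were 10.1% of the RNAPII loops (1075) and 14.4% of the H3K9me2 loops (868). A further 6.01% of the RNAPII loops and 12.2% of the H3K9me2 loops held a loop of the other target without being nested in one, and 3.42% of the RNAPII loops and 5.61% of the H3K9me2 loops only crossed one. Restricted to 6 PETs or more, the loops lying apart were 86.6% for RNAPII and 69.5% for H3K9me2. By bases, 39.1% of the chromosomes lay only under RNAPII loops of up to 1 Mb and 26.4% only under H3K9me2 loops. A further 11.5% lay under both and 23.0% under neither.

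Loops passed over anchors of their own target far more often than over those of the other. An H3K9me2 anchor lay between the ends of 28.2% of the RNAPII loops, and an RNAPII anchor between the ends of 30.2% of the H3K9me2 loops. An anchor of the same target lay between the ends of 74.2% of the RNAPII loops and 73.1% of the H3K9me2 loops. The share with an anchor of the other target followed the span, from 1.65% of RNAPII and 1.87% of H3K9me2 loops of up to 20 kb to 43.3% of RNAPII and 32.6% of H3K9me2 loops of 100 kb to 1 Mb.

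The loops of up to 1 Mb that held the most loops of the other target mark places where both kinds met. The RNAPII loop between chr9:1060966-1078389 and chr9:2037657-2048432, with a PET count of 19 and a span of 973.4 kb, held 62 H3K9me2 loops. A second RNAPII loop from the same left anchor, to chr9:1661408-1664605, held 39. The H3K9me2 loop between chr5:17136009-17162851 and chr5:18132637-18149636, with a PET count of 8 and a span of 991.7 kb, held 67 RNAPII loops. A much shorter H3K9me2 loop, between chr3:1079909-1091922 and chr3:1165816-1181464, spanned 87.7 kb and held 48 RNAPII loops. Its right anchor is the wide H3K9me2 anchor of the shared loops on chromosome 3 described above.

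A smaller share of RNAPII anchors than of H3K9me2 anchors had several partners. A single partner was found for 47.8% of the RNAPII anchors and 33.4% of the H3K9me2 anchors. At least 3 partners were found for 32.4% of the RNAPII anchors (2238, interval 31.3 to 33.5%) and 49.3% of the H3K9me2 anchors (1621, interval 47.6 to 51.0%). The RNAPII share was lower on 12 of 12 chromosomes, from 14.8% on chromosome 12 to 37.5% on chromosome 3, against 37.1% on chromosome 1 to 56.5% on chromosome 11 for H3K9me2. At 6 PETs or more the H3K9me2 share was 45.1%, and the RNAPII share was lower on 11 of 12 chromosomes, with chromosome 1 the exception. The mean was 3.39 partners per RNAPII anchor and 4.22 per H3K9me2 anchor. The highest number went the other way, with 92 partners at an RNAPII anchor and 42 at an H3K9me2 anchor.

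Anchor width moved with the number of partners in both lists. In the narrowest of 4 equal width classes of each list (up to 0.765 kb for RNAPII and up to 5.10 kb for H3K9me2), 2.84% of the RNAPII anchors and 21.4% of the H3K9me2 anchors had at least 3 partners. In the widest class the shares were 81.3% for RNAPII (interval 79.4 to 83.1%) and 80.9% for H3K9me2 (interval 78.1 to 83.4%), and the intervals overlapped. The mean number of partners in that class was 8.44 for RNAPII and 8.38 for H3K9me2. The classes were set within each list, however, and the widest RNAPII class (median 6.67 kb) was closest in width to the second H3K9me2 class (median 7.30 kb). Of these 81.3% of the RNAPII anchors and 41.9% of the H3K9me2 anchors had at least 3 partners, so that between classes of like width the order of the targets turned round.

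**Figure D3:**
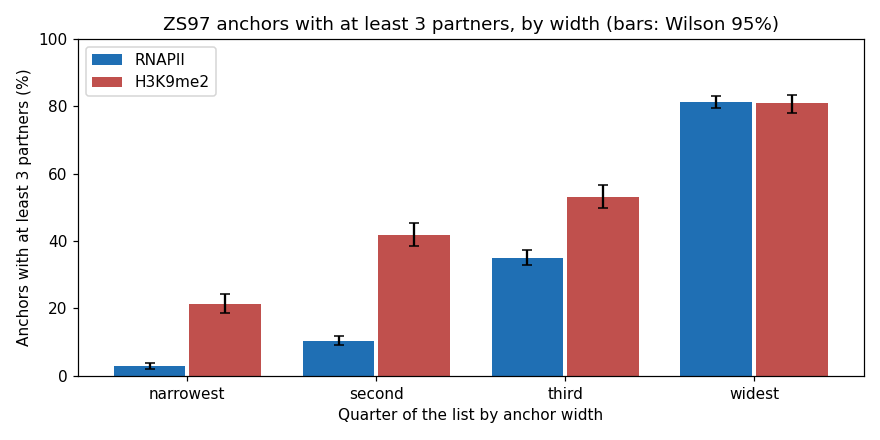
Share of ZS97 anchors with at least 3 partners (%) in 4 equal classes of anchor width, set within each list, RNAPII in blue on the left of each pair and H3K9me2 in red, with Wilson 95% intervals as bars. The shares are 2.84, 10.4, 35.1 and 81.3% for RNAPII and 21.4, 41.9, 53.1 and 80.9% for H3K9me2. A class covers different widths in the 2 lists, the widest RNAPII anchors having a median of 6.67 kb and the widest H3K9me2 anchors a median of 28.0 kb.

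The anchors with the most partners reached over very different distances. The RNAPII anchor with 92 partners, chr5:22085786-22103865, was 18.1 kb wide, and 57 of its partners were over 1 Mb away, up to a distance of 21.7 Mb. It overlapped the H3K9me2 anchor chr5:22102154-22113065, which had 1 partner and was not left when loops with a PET count under 6 were removed. The RNAPII anchor next in rank, chr3:6679908-6692013, had 80 partners, of which 60 were over 1 Mb away. The H3K9me2 anchor with 42 partners was chr3:18650973-18790144, an end of the strongest H3K9me2 loop, with a median partner distance of 455.9 kb and 10 partners beyond 1 Mb. A neighbour, chr3:19052656-19146998, had 40 partners, 7 of them beyond 1 Mb. Among anchors that overlapped the other target, the RNAPII anchor second in partners was chr5:14582682-14595401 with 39. It overlapped the H3K9me2 anchor chr5:14589420-14593440, which had 3. The H3K9me2 anchors of this kind with the most partners were chr6:12925103-12962675 with 28 and chr3:19218709-19248470 with 25, and each overlapped an RNAPII anchor with 1 partner. In each of these overlaps, picked for many partners on one side, the anchor of the other target had at most 3. Few partners were common in both lists, with at least 3 at only 32.4% of all RNAPII and 49.3% of all H3K9me2 anchors, so these overlaps are examples only.

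Along the chromosomes the 2 kinds of loops were dense in different places. RNAPII loops numbered 37.55 per Mb and H3K9me2 loops 20.01 per Mb over all 12 chromosomes. The RNAPII density was lowest on chromosome 12 (6.20 per Mb) and highest on chromosome 3 (82.2 per Mb). For H3K9me2 the lowest value was 10.6 per Mb, on chromosome 1, and the highest 25.9 per Mb, on chromosome 8. RNAPII loops were the more numerous on 8 of the 12 chromosomes, the others being 8, 10, 11 and 12. On chromosome 11 there were 223 RNAPII and 564 H3K9me2 loops, and on chromosome 12 there were 147 RNAPII and 445 H3K9me2 loops. Among loops of 6 PETs or more, chromosomes 11 and 12 remained the only ones with fewer RNAPII loops.

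**Figure D4:**
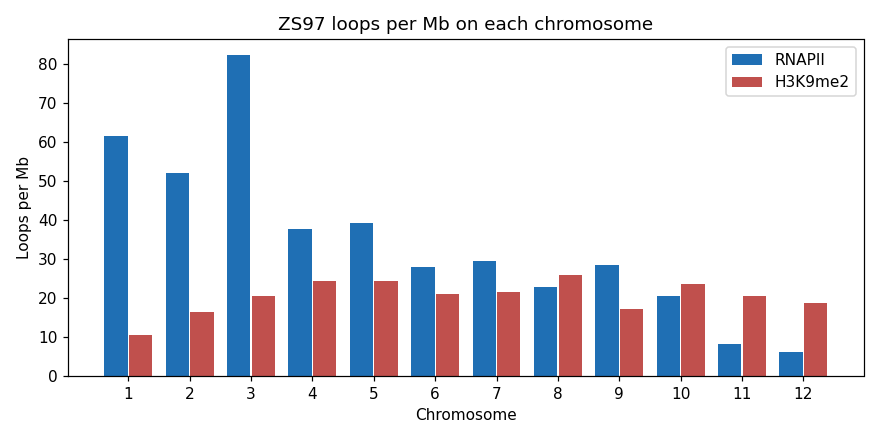
Loops per Mb on each of the 12 ZS97 chromosomes, RNAPII in blue on the left of each pair and H3K9me2 in red. RNAPII density ranges from 6.20 to 82.2 per Mb and H3K9me2 density from 10.6 to 25.9 per Mb, and the H3K9me2 bar is the taller on chromosomes 8, 10, 11 and 12.

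In bins of 1 Mb, where a loop counted once in each bin that held the midpoint of an anchor of it, the lists ran against each other. Of the 353 bins, 290 (82.2%) held loops of both targets, 35 held RNAPII loops only, 27 held H3K9me2 loops only and 1 held none. RNAPII loops were more numerous in 220 bins (62.3%) and H3K9me2 loops in 129 (36.5%). Both had at least 20 loops in 23 bins. The Spearman rank correlation of the counts was -0.55 over the 353 bins and Pearson's r was -0.32. The rank correlation was negative on 12 of 12 chromosomes, from -0.80 on chromosome 10 to -0.16 on chromosome 12. Neighbouring bins share loops and all bins share the same 2 lists, so these values describe the lists only. When only loops of 6 PETs or more were used the rank correlation was -0.56, and 67.7% of the bins held loops of both targets.

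The densest H3K9me2 bins held almost no RNAPII loops, while the densest RNAPII bins held H3K9me2 loops at numbers near the median of 6 per bin or none. The bin with the most RNAPII loops, from 9 to 10 Mb on chromosome 3, held 404 RNAPII loops and 8 H3K9me2 loops. It contains the strongest RNAPII loop. The bin from 29 to 30 Mb of the same chromosome held 273 RNAPII loops and 0 H3K9me2 loops, and the shortest distance from its RNAPII anchors to an H3K9me2 anchor was 529.9 kb. The bin from 1 to 2 Mb held 267 RNAPII and 7 H3K9me2 loops. In it 6 of 68 RNAPII anchors and 3 of 7 H3K9me2 anchors overlapped an anchor of the other target, and 89 of the 181 RNAPII loops with both ends in it lay within H3K9me2 loops of up to 1 Mb. The bin with the most H3K9me2 loops, from 19 to 20 Mb on chromosome 3, held 3 RNAPII and 291 H3K9me2 loops. The bins from 13 to 14 Mb on chromosome 6 and from 18 to 19 Mb on chromosome 3 held 0 RNAPII loops, with 279 and 245 H3K9me2 loops, and H3K9me2 anchors covered 724.8 and 836.6 kb of them.

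A few bins were rich in both. The bin from 15 to 16 Mb on chromosome 1 held 64 RNAPII and 94 H3K9me2 loops, and in it 4 of 13 RNAPII anchors and 4 of 29 H3K9me2 anchors overlapped an anchor of the other target. In the bin from 11 to 12 Mb on chromosome 9, with 69 RNAPII and 46 H3K9me2 loops, 1 of 34 RNAPII anchors and 1 of 16 H3K9me2 anchors did. The bin from 17 to 18 Mb on chromosome 1 held 71 RNAPII and 44 H3K9me2 loops, and 2 of 18 RNAPII anchors and 2 of 14 H3K9me2 anchors overlapped. Median distances to the nearest anchor of the other target in these 3 bins were 4.03, 23.0 and 36.6 kb for RNAPII anchors and 30.6, 34.0 and 26.0 kb for H3K9me2 anchors.

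Distance from the densest H3K9me2 bin of each chromosome shows the exchange of the 2 kinds. These 12 bins were chosen by their H3K9me2 counts, so that the H3K9me2 peak at distance 0 is set by the choice. They held a median of 3 RNAPII loops (quartiles 0 and 4.5) and 179 H3K9me2 loops. At 5 Mb the medians were 16 RNAPII and 18 H3K9me2 loops, and at 10 Mb they were 64 RNAPII and 3 H3K9me2 loops. The bin with the most RNAPII loops lay between 7 Mb (chromosome 12) and 23 Mb (chromosome 4) from the densest H3K9me2 bin of its chromosome.

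**Figure D5:**
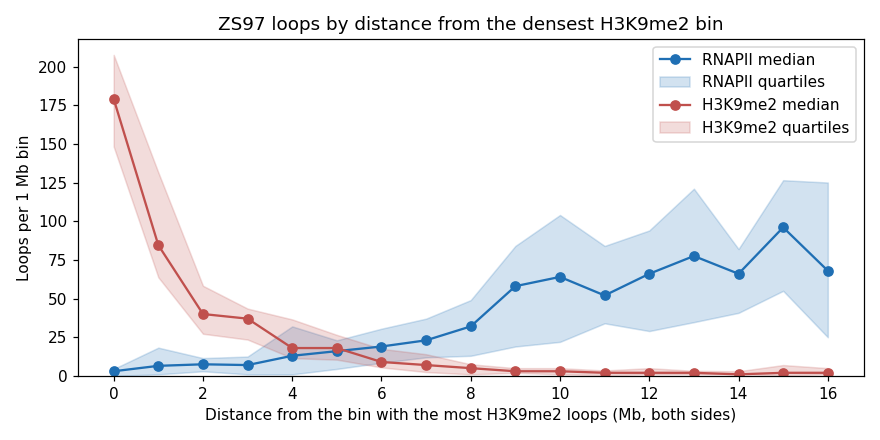
Loops per 1 Mb bin against the distance (Mb, both sides) from the bin with the most H3K9me2 loops on each ZS97 chromosome, RNAPII in blue and H3K9me2 in red, with medians as points and quartiles as bands, for distances reached by at least 9 bins. The RNAPII median is 3 at distance 0, 16 at 5 Mb and 64 at 10 Mb, and the H3K9me2 median is 179, 18 and 3 at the same distances.

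Most loops had both ends in bins of the same kind. Of the RNAPII loops 92.8% (12075) had no end in a bin with more H3K9me2 than RNAPII loops, 5.03% (654) had both ends in such bins and 2.17% (283) had 1 end there. Of the H3K9me2 loops 84.1% (5831) had both ends in such bins, 10.9% (753) had none and 5.03% (349) had 1. The bins were sorted by these same loops, so the shares describe the lists and are no test. A loop with both ends in 1 bin also cannot have mixed ends. Only 18.5% of the RNAPII loops and 12.9% of the H3K9me2 loops spanned over 1 Mb, so the shares do not show that long loops kept to one kind of bin. Span within the surroundings differed for both targets. RNAPII loops with both ends in bins with more H3K9me2 loops spanned a median of 21.4 kb (interval 18.96 to 23.9 kb), against 35.9 kb (interval 34.7 to 37.1 kb) for those with none. H3K9me2 loops with both ends in such bins spanned a median of 120.0 kb, against 43.7 kb (interval 39.4 to 48.8 kb) for those with none. Among loops with no end in such bins, the median spans of the 2 targets were thus closer, at 35.9 kb for RNAPII and 43.7 kb for H3K9me2, than over all loops.

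MH63, whose lists were called in its own genome and were never matched to ZS97 by position, gave the same order for most of these measures. Overlap with the other target was 1.91% of RNAPII and 3.56% of H3K9me2 anchors in ZS97, and 2.52% of RNAPII and 5.42% of H3K9me2 anchors in MH63. Median span was 36.4 kb for RNAPII and 116.1 kb for H3K9me2 in ZS97, and 59.3 kb for RNAPII and 104.6 kb for H3K9me2 in MH63. The rank correlation over bins was -0.55 in ZS97 and -0.56 in MH63. Anchors that had 3 partners or more were 32.4% for RNAPII and 49.3% for H3K9me2 in ZS97, and 42.3% for RNAPII and 42.2% for H3K9me2 in MH63. The lists of the varieties had different lower limits. A cut to 6 PETs or more left the ZS97 RNAPII list as it is, but only 9618 of the 17160 MH63 RNAPII loops. After this cut median span was 36.4 kb for RNAPII and 114.6 kb for H3K9me2 in ZS97, and 39.4 and 92.9 kb in MH63. Anchors with at least 3 partners were then 32.4% and 45.1% in ZS97, and 34.1% and 35.9% in MH63. Each variety has 1 list per target, so differences between the varieties have no replicate check.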

How the data were processed

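Per the labels and methods, ChIA-PET libraries of the 2 varieties and 3 targets were sequenced in 2 replicates each. The authors removed linkers, mapped tags to the genome of each variety, removed redundant PETs, joined the replicates and called loops between extended ChIP-seq peaks with ChIA-PET Tool in an updated form, its version being not given in the sources used here. The values the authors deposited are PET counts per loop, not scaled to depth. Their p-value and FDR columns were not used. Both ZS97 RNAPII replicates carry the same antibody label, so replicate numbers came from the titles.

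Rows on chromosomes 1 to 12 were kept, which left out 1 H3K9me2 loop, and 301 RNAPII loops whose own anchors overlap stayed in. Positions are printed 1-based in ZS97 coordinates. No ZS97 sequence or gene annotation was used here. The work used scipy 1.17.1, pandas 2.3.3 and numpy 2.4.6 under Python 3.11.15, and matplotlib 3.10.9 for figures. The order-statistic interval and the anchor, overlap, distance, nesting and bin functions were tested on simulated data. The Wilson interval was not tested in this way. Shares have Wilson intervals and medians order-statistic intervals, at 95%. The rank correlation has a Fisher z interval over bins, used only to sort its alternatives.

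Loops, anchors and bins were named by rule, as the 2 with the highest PET count, most partners or most loops held, and the 3 top shared pairs and bins of each kind. The members, rules and measures were chosen with earlier results of these data known. Alternatives were lower limits of 6 and 10 PETs, other anchor, overlap, distance and span definitions, loops of up to 1 Mb, and bins of 0.5 and 2 Mb.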

Additional observations from a re-analysis of the deposited data

Results flagged for a closer look

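The order of the targets in partners per anchor differed between the varieties, and this difference was not tested, since each list joins its replicates. RNAPII minus H3K9me2 in mean partners per anchor was -0.83 in ZS97 (3.39 for RNAPII and 4.22 for H3K9me2) and 0.86 in MH63 (4.33 for RNAPII and 3.47 for H3K9me2). Among loops of 6 PETs or more it was -0.60 in ZS97 (3.39 for RNAPII and 3.997 for H3K9me2) and 0.15 in MH63 (3.26 for RNAPII and 3.12 for H3K9me2). In the percentage of anchors that had 3 partners or more, RNAPII minus H3K9me2 was -16.9 percentage points in ZS97 and 0.140 in MH63. Among loops of 6 PETs or more it was -12.6 percentage points in ZS97 and -1.75 in MH63, which is the same order in both.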

How the results depend on the processing

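No paired analysis was possible because each list joins its replicates, and for the same reason no replicate could be left out. Of 59 alternative values, 22 stayed inside the 95% interval of the reported value and 37 did not. Under each alternative the targets kept their order in median span, in anchors of 3 partners or more and in anchors overlapping by bp. Overlap measured by midpoints (0.565% of RNAPII and 0.335% of H3K9me2 anchors) or by bases (0.931% and 0.392%) had the other order. The rank correlation over bins ran from -0.57 to -0.48 under its 6 alternatives, all inside its 95% interval of -0.62 to -0.47. That interval treats bins as independent, though neighbouring bins share loops, so it measures no spread.

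With loops of 6 PETs or more, overlap was 1.49% of RNAPII anchors, distances were 305.8 kb from RNAPII and 118.9 kb from H3K9me2 anchors, nested RNAPII loops 67.9%, H3K9me2 anchors with at least 3 partners 45.1% and bins with both 67.7%. With loops of 10 PETs or more, overlap was 1.04% of RNAPII and 2.41% of H3K9me2 anchors, distances 776.1 and 253.6 kb, nested loops 41.8% and 92.2%, median spans 25.9 and 105.9 kb, anchors with at least 3 partners 24.4% and 39.5%, and bins with both 45.0%, RNAPII first in each pair. These counts were not scaled to depth, and loops below the lower limit of each list were not analysed here.

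Keeping only loops of up to 1 Mb gave nested shares of 10.1% for RNAPII and 14.4% for H3K9me2, median spans of 26.1 and 91.3 kb, anchors with at least 3 partners of 31.1% and 47.4%, and 73.4% of bins with both. Overlap of 50% of the narrower anchor left 0.623% of RNAPII and 1.07% of H3K9me2 anchors. Between midpoints the distances were 150.5 kb for RNAPII and 116.7 kb for H3K9me2. Spans were 41.4 kb for RNAPII and 146.7 kb for H3K9me2 between outer ends, and 31.6 and 88.0 kb between inner ends. Without RNAPII loops whose own anchors overlap, the RNAPII median was 38.1 kb. Joining anchors across 5 kb gave 36.6% of RNAPII and 47.2% of H3K9me2 anchors with at least 3 partners. Bins with both were 60.4% at 0.5 Mb and 91.6% at 2 Mb.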
